A study of Drosophila melanogaster with 12 samples.

Results

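The comparison described here is the response of the larval fat body to a high-sugar diet in Drosophila melanogaster whose libraries are labelled as seven-up (svp) RNAi. Its members are 6 of the 12 RNA-seq libraries of the series, 3 from a diet with 0.7 M sucrose and 3 from a control diet with 0.15 M sucrose, chosen by their labels, and every gene of the table with an unambiguous name, 9367 in all. All 12 libraries are from fat bodies of female larvae at the wandering stage of the third instar. Their mothers came from a stock with UAS-Dcr2 on the X chromosome and the driver r4-GAL4, so every group carries both, the controls included. The fathers came from the VDRC stock 100762, which carries UAS-Svpi, or from the VDRC stock 60100, which serves as the control. r4-GAL4 drives expression in the fat body, so a hairpin under it would act mainly there. The other 6 libraries, 3 per diet from the control cross, supply the test of whether a response differed between genotypes. No batch is named in the labels, and neither is the origin of the 3 libraries of a group (separate crosses, pools or one extract), so p-values measure the spread between these libraries, which may be technical.

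The fat body of an insect takes the place of both liver and adipose tissue. It turns dietary sugar into triglyceride and glycogen, releases trehalose, lipoproteins and storage proteins into the hemolymph, and sends peptide signals that tell other organs about the state of nutrition. Sucrose at a high level in the food of larvae is a widely used model of sugar overload, and the sugar sensor formed by Mondo and its partner bigmax is known to raise glycolytic, pentose phosphate and lipogenic genes. The gene svp itself codes for an orphan nuclear receptor related to the COUP transcription factors of vertebrates.

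The label svp RNAi was checked first, and svp RNA was not lower in these libraries. Its normalized abundance, a read-like level adjusted by the authors to a common library size, was 1658, 1664 and 1350 in the control-diet libraries labelled svp RNAi and 1712, 1480 and 2180 in the high-sugar ones. The control genotype held 516, 477 and 373 on control diet and 631, 628 and 664 on high sugar, all lower. Reads that come from the hairpin transcript and reads from the endogenous gene cannot be told apart in a table of gene totals. The group name therefore stands for what the labels say, and no direction below is read as an effect of less svp. Diet itself left svp with a log2 fold change of 0.10 ± 0.16 (SE, adjusted p = 0.738). Dcr-2, which all groups carry as a transgene, was at 45260 ± 9959 and 48560 ± 7495 on the 2 diets (SD, n = 3, log2 fold change 0.02, adjusted p = 0.967).

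Recovered read totals were 4381014 to 6559227 per library over the genes kept. Principal components over 7399 genes split the genotypes along the first axis (38.3% of the variance) and the diets along the second (23%). Fat body markers took 22.6% to 26.2% of the reads of each of the 6 libraries. Transcripts of the mitochondrial genome took 2.34%, 2.88% and 5.71% of reads on control diet and 2.20%, 1.32% and 0.407% on high sugar, so high-sugar replicate 3 stood low. Its omission moved the number of calls more than that of any other library.

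High sugar moved many genes in these libraries, and more of the moderate changes were rises than falls. Of the 9367 genes, 502 (5.36%) were called higher and 341 (3.64%) lower on high sugar, together 9.0% of the genes tested. A call is an adjusted p under 0.05 from limma over all genes, and a fold change is taken on log2(value + 1) after the median difference between the diets has been set to 0, which understates changes of genes with few reads. The called rises had a median fold of 1.64 and the called falls a median fold of 2.02. Of the called genes that changed at least 2-fold, 133 rose and 174 fell. The 3 high-sugar libraries lay wholly above or below the 3 control-diet libraries in 2905 genes (31.0%), 18.1% of all genes above and 12.9% below. In the control genotype the same contrast called 124 genes higher (1.32%) and 58 lower (0.619%), together 1.94%.

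The counts lean on single libraries. Without high-sugar replicate 3 the calls were 191 higher and 101 lower. They were 262 higher without high-sugar replicate 1, 271 higher and 159 lower without control-diet replicate 3, 296 higher and 204 lower without control-diet replicate 2, and 198 lower without high-sugar replicate 2. Across all 12 fits that each left out 1 library, 250 genes were called every time. With no centring of the diets, the calls were 1004 higher and 279 lower, so the balance of rises and falls depends on the centring.

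**Figure D1:**
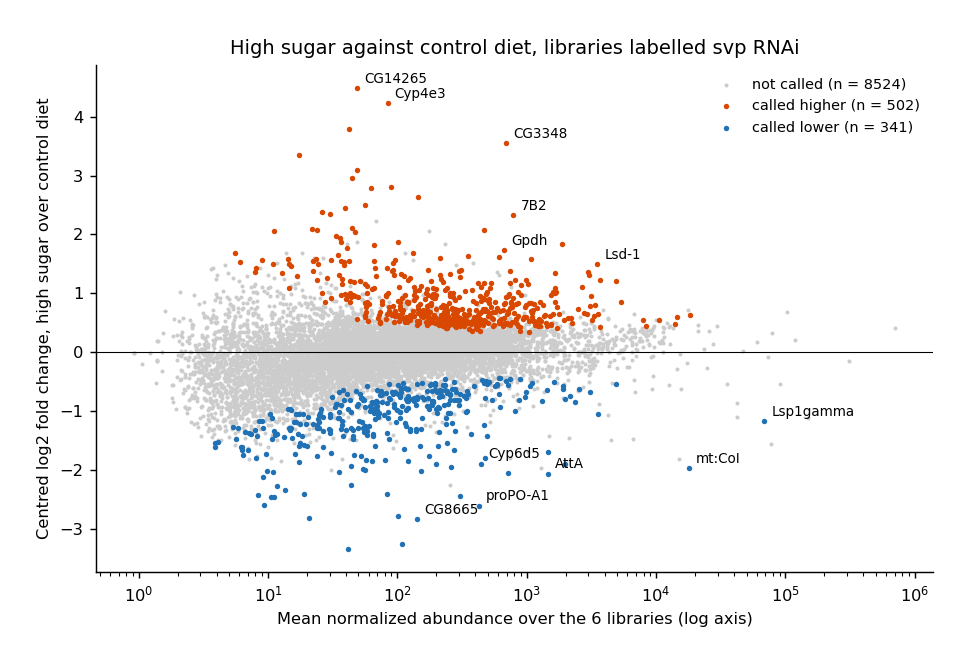
Centred log2 fold change of high sugar over control diet against the mean normalized abundance of the 6 libraries labelled svp RNAi (log axis), 1 point per gene. The 502 genes called higher are orange, the 341 called lower are blue, and the falls below a log2 fold change of -2 include proPO-A1 and CG8665.

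Among the largest rises were genes of varied kinds, most of them still without a name. CG14265 went from 6.93, 0.684 and 2.40 on control diet to 134, 109 and 40.8 on high sugar, a 22.4-fold rise (log2 fold change 4.48 ± 0.62 SE, adjusted p = 0.000777). Cyp4e3, a cytochrome P450 gene, was at 11.9, 6.69 and 3.03 on control diet and at 116, 266 and 99.9 on high sugar, an 18.7-fold rise (4.22 ± 0.49 SE, adjusted p = 0.000208). For both, the control-diet levels rest on few reads. CG3348 was more abundant, at 179, 91.3 and 54.4 against 1756, 793 and 1287, an 11.7-fold rise (adjusted p = 0.000612). 7B2, whose product is a chaperone of a prohormone convertase, was at 218, 260 and 264 against 1430, 1209 and 1332, a 5.01-fold rise (log2 fold change 2.32 ± 0.19 SE, adjusted p = 4.3e-05). The spread of 7B2 within each diet was small, and its groups did not overlap.

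CG14205 (13.8-fold), CG13947 (10.1-fold) and CG15534 (8.49-fold) rose as well. CG6074 (now CAH9, a carbonic anhydrase) rose 6.96-fold, CG1774 6.19-fold, CG9780 (now Nepl11, a neprilysin-like protein) 5.65-fold and CG16857 (now bdl, a transmembrane protein with immunoglobulin domains) 5.43-fold. CG11191 rose 6.88-fold, from 4.89, 14.99 and 32.3 to 113, 89.6 and 118. Its log2 fold change in the control genotype was -0.53, and the difference between the genotypes missed the threshold (adjusted p = 0.0555). The remaining large rises were CG40485 (5.21-fold), CG14275 (5.10-fold) and the serine protease Jon99Fi (7.80-fold), which is listed below with the midgut markers. Of these 15 largest rises, 11 were also called higher in the control genotype, where Cyp4e3 rose 86.03-fold, and CG14265, CG6074, CG11191 and CG40485 were not.

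Of 22 genes of lipogenesis and triglyceride synthesis measured, 9 rose and 0 fell, in all 40.9% beside 9.0% of all genes. The median log2 fold change of the 22 was 0.46 against 0.00 over all genes. Gpdh (now Gpdh1), the glycerol-3-phosphate dehydrogenase that makes the backbone of triglycerides, was at 298, 298 and 283 on control diet and 1076, 1058 and 995 on high sugar. This 3.33-fold rise (log2 fold change 1.74 ± 0.19 SE, adjusted p = 0.000149) was one of the tightest, with no overlap and little spread. v(2)k05816 (now FASN2), a fatty acid synthase, was at 17.8, 15.9 and 17.4 against 67.2, 52.3 and 48.4, a 2.94-fold rise (adjusted p = 0.00202). desat1, the main acyl-CoA desaturase, rose 1.96-fold, from 1105, 957 and 940 to 2080, 2427 and 1785 (adjusted p = 0.00453). mdy, the diacylglycerol acyltransferase of the last step to triglyceride, rose 1.93-fold, from 161, 195 and 168 to 453, 350 and 291 (adjusted p = 0.00291).

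The other called members of that list are named after their values were seen. AcCoAS, which makes acetyl-CoA from acetate, rose 2.16-fold, ACC, which makes malonyl-CoA, 2.02-fold, CG3523 (now FASN1) 1.80-fold, Men, the malic enzyme that yields NADPH, 1.71-fold and Lpin, the phosphatidate phosphatase, 1.36-fold. The calls of ACC, FASN1, Men and Lpin all ended without control-diet replicate 3, high-sugar replicate 1 or high-sugar replicate 3, with adjusted p up to 0.174, so the list held 5 called members without control-diet replicate 3. In the control genotype 4 members of this list were called higher and the median was 0.34, and no member had a called interaction. FASN1 and FASN2 are related copies that could share reads.

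Among genes of lipid droplets, Lsd-1, the perilipin that coats lipid droplets, stood at 1888, 1919 and 1491 on control diet and 5575, 4690 and 5558 on high sugar, a 2.81-fold rise (log2 fold change 1.49 ± 0.14 SE, adjusted p = 8.55e-05). Seipin, a protein of the contacts between the endoplasmic reticulum and the droplet, was at 58.2, 57.1 and 57.8 against 162, 139 and 167, a 2.50-fold rise (adjusted p = 0.000185). Each of the 3 high-sugar libraries was more than 2-fold above all control-diet libraries for both genes. In the control genotype Seipin had a log2 fold change of 0.34 (adjusted p = 0.28), and the difference between the genotypes, 0.98 ± 0.21 SE, missed the threshold (adjusted p = 0.084). Across the 20 genes of lipolysis and droplets, 5 rose, 1 fell and the median was 0.13. Enzymes of breakdown were among the rises: Lip4, a lipase, rose 1.97-fold and CG8552 (now PAPLA1), a phospholipase, 1.61-fold, and bmm, the main triglyceride lipase of the fat body, 1.58-fold (named after its value was seen). The single fall was CG6283, a predicted lipase, at 95.7, 165 and 129 against 11.04, 79.1 and 16.4. The call of Lip4 ended without high-sugar replicate 2 (adjusted p = 0.0509). Those of PAPLA1 and bmm ended without control-diet replicate 3 or any 1 high-sugar library (adjusted p up to 0.0898 and 0.136), bmm also without control-diet replicate 2. That of CG6283 ended in 8 of the 12 fits (adjusted p up to 0.164).

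Genes of fatty acid oxidation rose in 3 of 24 cases and fell in 0, in all 12.5% beside 9.0% of all genes. Their median was 0.15 (0.05 under quantile normalization), beside a median of 0.21 and 3 called rises in the control genotype. All 3 calls in the libraries labelled svp RNAi held in the 12 fits that left out 1 library. Acox57D-d, a peroxisomal acyl-CoA oxidase, was at 44.4, 46.2 and 46.2 against 139, 175 and 127, a 2.95-fold rise (adjusted p = 0.000142). Its relative CG9527 (now Acox3) rose 1.79-fold, from 671, 583 and 529 to 1080, 1179 and 1124 (adjusted p = 0.0007). whd, the carnitine palmitoyltransferase that admits fatty acids to mitochondria, rose 1.70-fold (adjusted p = 0.00756).

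**Figure D2:**
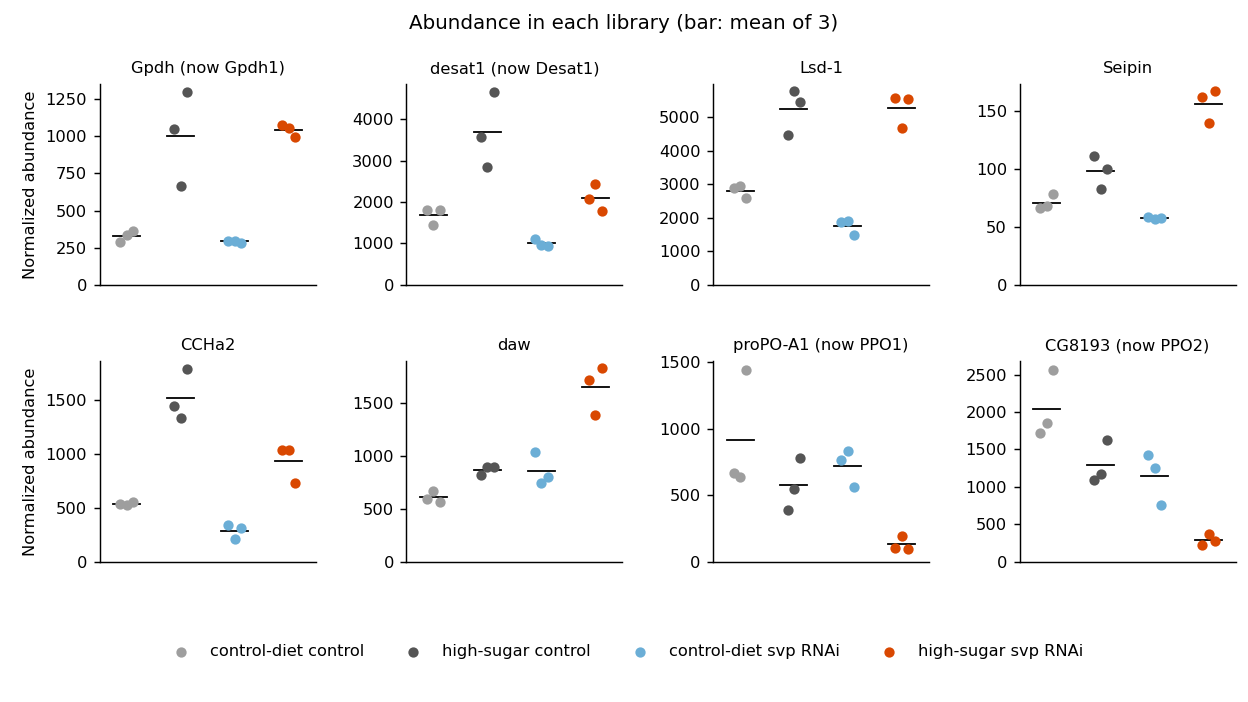
Normalized abundance of 8 genes in each of the 12 libraries, by group, with a bar at the mean of 3 (linear axes from 0). In the libraries labelled svp RNAi, Gpdh, desat1, Lsd-1, Seipin, CCHa2 and daw lie higher on high sugar with no overlap, and proPO-A1 and CG8193 lie lower with no overlap.

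Regulators known to respond to sugar rose in 4 of 10 cases and fell in 0, in all 40.0% beside 9.0% of all genes, with a median of 0.46. CCHa2, a peptide hormone that the fat body sends to the insulin-producing cells, was at 337, 212 and 315 on control diet and 1036, 1041 and 733 on high sugar (3.07-fold, log2 fold change 1.62 ± 0.18 SE, adjusted p = 0.000185). The activin ligand daw was at 1034, 749 and 802 against 1725, 1389 and 1837, a 1.80-fold rise (adjusted p = 0.00295). CG42856 (now Sik3), a kinase of the sugar and lipid network, rose 1.63-fold (adjusted p = 0.00578), and bigmax, the Mondo partner, 1.58-fold from 95.7, 67.8 and 76.7 to 113, 128 and 167. The rise of bigmax was the least certain, with adjusted p of 0.0352 that reached 0.166 when a library was left out. Of the control genotype's libraries, CCHa2 was also higher on high sugar (log2 fold change 1.37, adjusted p = 0.00119). The row of Mondo itself was among the names left out.

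Of 13 genes of the pentose phosphate and polyol pathways, 3 rose and 1 fell, in all 30.8% beside 9.0% of all genes (median 0.20). Zw, the glucose-6-phosphate dehydrogenase that opens the pathway, was at 67.1, 88.9 and 37.3 against 155, 141 and 186, a 2.44-fold rise (adjusted p = 0.0115). Pgd, the next dehydrogenase, was at 448, 462 and 486 against 871, 779 and 1027, a 1.79-fold rise (adjusted p = 0.00962). CG8036, a transketolase, rose 1.45-fold, and CG10638, an aldo-keto reductase, fell 1.77-fold. All 4 calls ended without high-sugar replicate 3, with adjusted p up to 0.0769.

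Of 11 glycolysis genes 1 rose: PyK, the pyruvate kinase, from 929, 957 and 889 to 1801, 1631 and 1751 (1.75-fold, adjusted p = 0.00521). That is 9.09% of the list, near the 9.0% called of all genes. The median of the glycolysis list was -0.11, and 7 of its 11 members lay below 0. All 13 genes of gluconeogenesis, glycogen and trehalose lay above 0 with a median of 0.28, and 2 passed the test (15.4%, beside 9.0% of all genes). These were the glycogen debranching enzyme CG9485 (1.62-fold, adjusted p = 0.00249) and the pyruvate carboxylase CG1516 (now PCB, 1.57-fold, adjusted p = 0.019). The latter call ended without control-diet replicate 2 or 3 or without high-sugar replicate 1 or 3 (adjusted p up to 0.086).

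Transporters of sugar went both ways, 2 of 18 up and 3 down, in all 27.8% beside 9.0% of all genes. Their median of -0.18 was 0.01 under quantile normalization. Tret1-1, the trehalose transporter, was at 903, 603 and 723 against 1179, 1540 and 1482 (1.78-fold higher, adjusted p = 0.00536). CG1208, a member of the same superfamily, was at 13.8, 10.8 and 14.96 against 4.71, 5.77 and 5.10, a 2.43-fold fall. In the control genotype its level moved the other way, from 26.8, 20.1 and 11.5 to 59.7, 60.5 and 39.1, and the interaction was called (log2 difference -2.62 ± 0.43 SE, adjusted p = 0.0239). The levels of CG1208 are low, and its diet call ended without replicate 1 or 3 of either diet (adjusted p up to 0.0684), as did the interaction in 6 of the 12 fits (adjusted p up to 0.0802).

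In the TCA cycle 4 of 23 genes rose, each by under 1.5-fold, and 0 fell (median 0.09), in all 17.4% beside 9.0% of all genes. None of the 4 was called without high-sugar replicate 3. Of 30 nuclear genes of oxidative phosphorylation, Cyt-c-p, the cytochrome c gene, was the 1 that rose, from 77.9, 90.9 and 86.7 to 182, 147 and 216 (1.97-fold, adjusted p = 0.00552). This 1 call is 3.33% of the list, below the 9.0% called of all genes. Among 25 insulin and TOR genes 3 rose and 0 fell (median 0.25), in all 12.0% beside 9.0% of all genes. Pi3K92E, the catalytic subunit of phosphoinositide 3-kinase, rose 1.66-fold (adjusted p = 0.00598), Sesn, a sestrin that restrains TOR, 1.65-fold and Pdk1, the kinase upstream of Akt, 1.58-fold. The calls of Sesn and Pdk1 ended without control-diet replicate 3 or high-sugar replicate 3 (adjusted p up to 0.0812). InR was at 294, 257 and 269 against 286, 293 and 301 (adjusted p = 0.971).

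Fat body cells of larvae are polyploid and copy their DNA without dividing. Of 31 genes of replication and the cell cycle, 8 rose and 0 fell, in all 25.8% beside 9.0% of all genes, with a median of 0.51. The control genotype had a median of -0.03 for this list and 0 calls by limma. CDC45L (now Cdc45), part of the replicative helicase, was at 46.4, 59.9 and 54.5 against 119, 118 and 109, a 2.01-fold rise (adjusted p = 0.00344). DNApol-alpha73 (now PolA2) was at 21.7, 24.4 and 24.8 against 50.0, 48.8 and 52.1, a 1.96-fold rise (adjusted p = 0.00875). The high-sugar libraries of both genes lay close together and well above the control-diet ones. DNApol-alpha180 (now PolA1), the catalytic subunit of the same polymerase, rose 1.90-fold and CycE, the cyclin of the start of S phase, 1.45-fold. RnrL, the large subunit of ribonucleotide reductase, rose 1.62-fold, the helicase subunits Mcm6 and Mcm2 1.53-fold and 1.5-fold, and the cell cycle regulator E2f2 1.49-fold, named after their values were seen. These 6 calls, from PolA1 to E2f2, all ended without control-diet replicate 3 or high-sugar replicate 3 (adjusted p up to 0.133). No member of the list had a called interaction, so a difference between the genotypes was not shown, and without high-sugar replicate 3 the called members numbered 2.

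Redox and detoxification genes moved in a split pattern. Gclc, the catalytic subunit of glutamate-cysteine ligase and the limiting enzyme of glutathione synthesis, was at 406, 420 and 353 on control diet and 1131, 1120 and 1014 on high sugar. That 2.60-fold rise (log2 fold change 1.38 ± 0.12 SE, adjusted p = 4.3e-05) stood beside 0.24 in the control genotype, and the difference was called (1.14 ± 0.17 SE, adjusted p = 0.0134). Of the other 44 members of the list of glutathione S-transferases and redox defence, 0 rose and 6 fell, and the median of the 45 was -0.33 against 0.14 in the control genotype. The calls were 15.6% of the list, beside 9.0% of all genes, and Gclc was the 1 member with a called interaction. The falls were all glutathione S-transferases, which join glutathione to reactive compounds. GstD9 went from 114, 86.2 and 114 to 62.4, 45.5 and 51.1 (2.08-fold, adjusted p = 0.00948), CG30000 (now GstT1) from 412, 362 and 366 to 223, 259 and 177 (1.86-fold, adjusted p = 0.00395) and CG5224 (now GstE11) from 232, 265 and 280 to 184, 175 and 162 (1.58-fold, adjusted p = 0.00977). GstD10 (2.46-fold), GstD7 (2.08-fold) and GstD3 (2.001-fold) also fell, named after their values were seen, and their calls ended without control-diet replicate 1, high-sugar replicate 2 or high-sugar replicate 3 (adjusted p up to 0.137). The GstD genes are close copies in 1 cluster, so reads could be split among them.

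Of 74 cytochrome P450 genes, 10 rose and 4 fell, in all 18.9% beside 9.0% of all genes, while the median was -0.04 and 0.05 with no centring. Cyp6d5 was at 822, 781 and 490 on control diet and 191, 183 and 210 on high sugar, a 3.71-fold fall (log2 fold change -1.89 ± 0.17 SE, adjusted p = 6.3e-05). Cyp4d8 rose 3.03-fold, from 107, 114.6 and 80.5 to 379, 267 and 333 (adjusted p = 0.0007). Cyp4ad1 rose 2.69-fold (adjusted p = 0.000406), Cyp6g2 2.64-fold (adjusted p = 0.004) and Cyp6t3 2.08-fold (adjusted p = 0.000568). In the P450 list 4 genes had a called interaction: Cyp6d5, Cyp6g2, Cyp6t3 and Cyp304a1, the last named after its values were seen. Of the 12 fits that left out 1 library, the interaction was called in 12 for Cyp6d5, 5 for Cyp6g2, 4 for Cyp304a1 and 2 for Cyp6t3 (adjusted p up to 0.119). Cyp304a1 rose from 184.5, 170 and 155.9 to 530, 386 and 413 (2.42-fold, adjusted p = 0.0144), a call that ended without control-diet replicate 3 or high-sugar replicate 1 (adjusted p up to 0.0566). Purine breakdown held another, ry, the xanthine dehydrogenase, which rose from 356, 308 and 323 to 695, 585 and 674 (1.85-fold, adjusted p = 0.00359) and whose interaction was called in 4 of those fits.

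**Figure D3:**
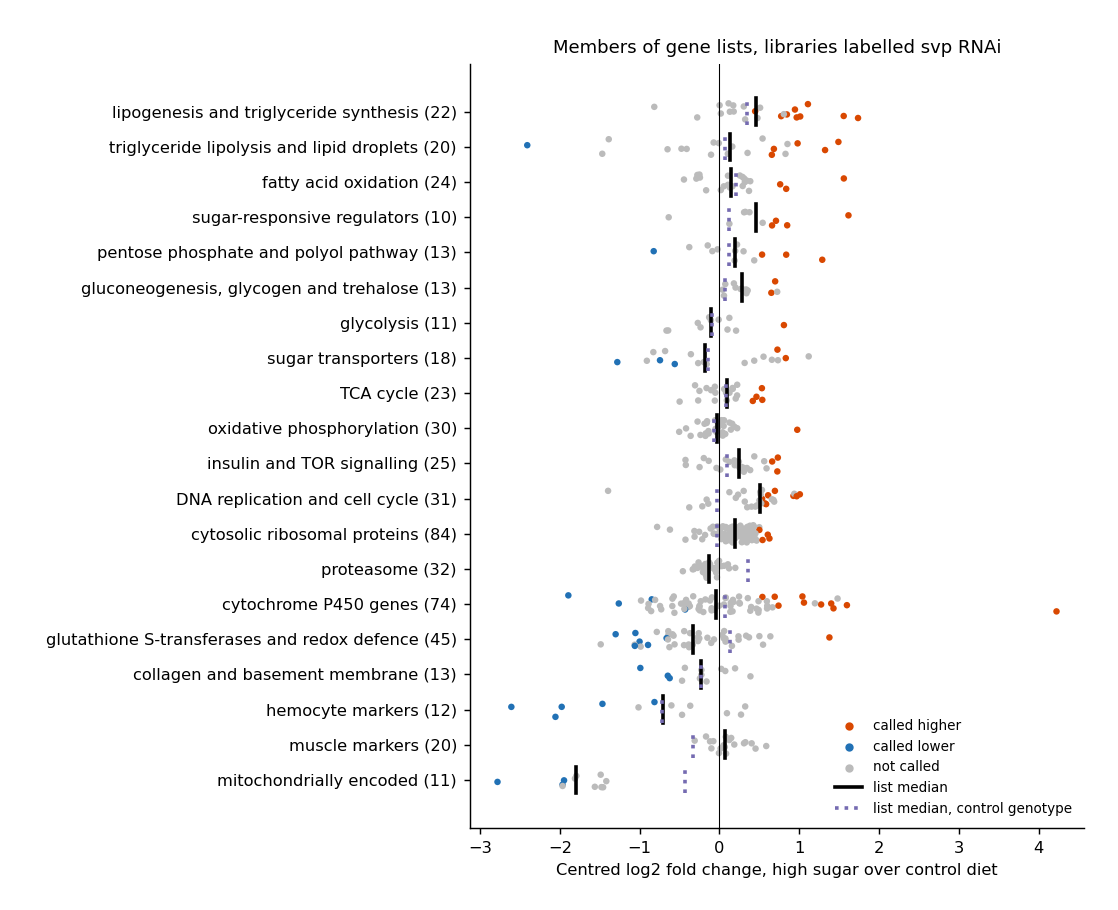
Centred log2 fold change by diet of each member of 20 gene lists in the libraries labelled svp RNAi, 1 point per gene, orange where called higher and blue where called lower. Black bars are list medians and dotted bars the medians of the same lists in the control genotype. Lipogenesis and DNA replication have medians of 0.46 and 0.51, hemocyte markers -0.71 and mitochondrially encoded transcripts -1.79.

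Most markers of blood cells lay lower on high sugar, 9 of 12 below 0 and 3 above. Of these 12 hemocyte markers, 5 were called lower and 0 higher, in all 41.7% beside 9.0% of all genes. The median was -0.71, beside -0.72 in the control genotype. proPO-A1 (now PPO1), the prophenoloxidase of crystal cells that serves melanization, was at 762, 835 and 562 on control diet and 101, 190 and 97.6 on high sugar. It fell 6.09-fold (log2 fold change -2.61 ± 0.33 SE, adjusted p = 0.000408). CG8193 (now PPO2), the other crystal cell prophenoloxidase, was at 1431, 1250 and 754 against 216, 375 and 279, a 4.16-fold fall (adjusted p = 0.000314). Hml, the clotting protein hemolectin of plasmatocytes, fell 1.76-fold, from 368, 395 and 363 to 235, 244 and 204 (adjusted p = 0.00217). nimC1, a phagocytosis receptor of plasmatocytes, fell 2.76-fold and He, a surface protein of hemocytes, 3.94-fold (the latter named after its value was seen), and for both the high level was control-diet replicate 3, without which their calls ended (adjusted p up to 0.119 over the fits that left out 1 library). The summed share of the 12 markers was 0.125% to 0.141% of reads on control diet and 0.083% to 0.0932% on high sugar, with no overlap. In the control genotype that share was 0.1379% to 0.1595% on control diet and 0.1199% to 0.1361% on high sugar, also with no overlap. In such bulk samples fewer cells of a type and less RNA per cell cannot be told apart. In the control genotype PPO1 and PPO2 had log2 fold changes of -0.74 and -0.77 and were not called, and neither interaction was called (adjusted p = 0.168 and 0.205).

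Other genes of immunity and matrix showed scattered falls. Collagen and basement membrane genes fell in 3 of 13 cases and rose in 0 (median -0.23), in all 23.1% beside 9.0% of all genes. The falls were of vkg, a collagen IV chain, 1.99-fold (adjusted p = 0.00228), Cg25C (now Col4a1), the other collagen IV chain, 1.57-fold and trol, the perlecan, 1.54-fold. Without high-sugar replicate 3 the calls of Col4a1 and trol ended (adjusted p up to 0.0949 over the fits without 1 library). Hemocytes and fat body both make collagen IV, and the part of the lower hemocyte markers in this fall was not tested. Of serpins and immune serine proteases 4 of 21 fell, PPO1 and PPO2 among them, and 1 rose, in all 23.8% beside 9.0% of all genes. AttA, an attacin, was at 4036, 1464 and 1580 against 564, 386 and 711, a 4.18-fold fall. It was the single call among 9 antimicrobial peptide genes (11.1%, near the 9.0% of all genes), of which 4 lay above 0. The AttA call ended without control-diet replicate 1 or 3 or any 1 high-sugar library (adjusted p up to 0.0999), and AttA could share reads with its near-identical copy AttB. Of the storage proteins, Lsp1gamma was at 116400, 66300 and 96830 against 42780, 52300 and 35250, a 2.25-fold fall (adjusted p = 0.0292) that was lost without control-diet replicate 1 or 3 or high-sugar replicate 1 or 3 (adjusted p up to 0.123).

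ImpE2, an ecdysone-inducible gene, fell 3.45-fold, from 506, 924 and 726 to 143, 304 and 227 (adjusted p = 0.0066), and Jheh3, a juvenile hormone epoxide hydrolase, rose 1.78-fold (adjusted p = 0.00492). Across the 30 ecdysone and steroid hormone genes, 1 rose and 4 fell, in all 16.7% beside 9.0% of all genes, and the median was -0.04 (0.05 with no centring). In the list of endoplasmic reticulum folding, wbl, a disulfide isomerase relative, fell 2.37-fold (adjusted p = 0.00377), and Atf6, a transcription factor of the unfolded protein response, 2.02-fold from 526, 378 and 424 to 314, 204 and 192 (adjusted p = 0.0209). The Atf6 call ended without control-diet replicate 1 or 3 or high-sugar replicate 2 or 3 (adjusted p up to 0.092). Tsf3, a transferrin, rose 1.90-fold, from 122, 131 and 132 to 295, 252 and 241 (adjusted p = 0.00148).

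Further large falls were of genes of varied kinds. CG8665, annotated as a formyltetrahydrofolate dehydrogenase of one-carbon metabolism, was at 287, 201 and 246 against 42.6, 53.8 and 19.0, a 7.15-fold fall (log2 fold change -2.84 ± 0.29 SE, adjusted p = 0.000118). CG1732 (now Gat, a transporter of the transmitter GABA) was at 280, 219 and 221 against 70.9, 49.1 and 68.4, a 4.05-fold fall (adjusted p = 0.00202). CG9672 fell 10.1-fold, CG3819 7.06-fold, mthl2 5.28-fold, CG33465 5.07-fold, CG34330 4.77-fold and the cuticle protein gene Cpr11A 4.10-fold. The call of CG33465 ended without control-diet replicate 2 or 3 or high-sugar replicate 2 or 3 (adjusted p up to 0.104). CR41590 and CR40582, listed as non-coding, fell 5.41-fold and 9.50-fold, the second from 126, 166 and 256 to 73.4, 22.5 and 3.43, again lowest in high-sugar replicate 3. Of the 15 largest falls, 4 were also called lower in the control genotype.

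All 11 mitochondrially encoded transcripts lay below 0, with a median of -1.79 beside -0.44 in the control genotype, and 3 were called lower. Of the 11, 0 had a called interaction. mt:CoI, a subunit of cytochrome c oxidase, was at 19290, 17300 and 44310 against 16530, 7427 and 2444. High-sugar replicate 1 thus lay just under control-diet replicate 2, and the number of these calls ran from 0 to 11 with the library left out. mt:srRNA was at 131, 182 and 169 against 83.8, 33.9 and 4.20 (6.87-fold, adjusted p = 0.0204), and its call ended without control-diet replicate 2 or 3 (adjusted p up to 0.062). The 6 nuclear ribosomal RNA rows also lay below 0 (median -0.87) with 0 calls by limma (2 lower at an unadjusted p under 0.05, 0 by voom), and the libraries had been depleted of ribosomal RNA. The part of RNA quality in the other results was not tested.

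Markers of other tissues were measured to see what else the dissected material held. Muscle markers had 0 calls by limma in 20 genes (2 higher at an unadjusted p under 0.05, 0 by voom) and a median of 0.07, which was -0.02 under quantile normalization. Malpighian tubule markers lay below 0 in 7 of 7 genes (median -0.61, and -0.52 in the control genotype). The 1 call among them (14.3%, beside 9.0% of all genes) ended without high-sugar replicate 1. The summed share of these markers was 0.0712% to 0.0743% of reads on control diet and 0.0354% to 0.0453% on high sugar, without overlap. Oat is in this list and also in that of amino acid catabolism, and its part in the share was not tested. Neuron and glia markers had a median of -0.53 and 2 calls of 14 (14.3%, beside 9.0% of all genes, and 1 call by voom), with 0 left without control-diet replicate 3. Of 31 midgut markers 3 rose and 1 fell, in all 12.9% beside 9.0% of all genes, and 19 of the 31 lay below 0 (median -0.22). Jon99Fi went from 5.90, 12.0 and 9.07 to 68.8, 78.9 and 91.6, and LysX and Jon99Fii rose 3.23-fold and 3.64-fold, while Amy-d, an amylase, fell 3.02-fold. The calls of Jon99Fii and Amy-d ended without control-diet replicate 1 or any 1 high-sugar library (adjusted p up to 0.182). The summed midgut share, 0.0624% to 0.134% on control diet and 0.0707% to 0.124% on high sugar, overlapped. These families hold near-identical copies that could share reads, and the part of such tissue in the results was not tested.

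The response in the control genotype overlapped in part. Of the 843 calls, 109 were also called in the control genotype, 107 of them in the same direction. This is 12.9% of the calls in the libraries labelled svp RNAi and 59.9% of the 182 calls in control, and 161 of the 843 had the opposite sign in control. A call in 1 genotype and not in the other does not show a difference, so the difference itself was tested as an interaction, which called 25 genes (0.267%), 17 with the higher and 8 with the lower contrast in the libraries labelled svp RNAi. Of these 25, 15 were among the diet rises and 6 among the diet falls.

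The genes described first are diet calls with the smallest interaction p. CG8665 had a log2 fold change of -2.84 in the libraries labelled svp RNAi and 0.40 in control, where it was at 416, 319 and 497 on control diet and 503, 612 and 629 on high sugar (interaction -3.24 ± 0.41 SE, adjusted p = 0.00425). CG8389 was at 282, 163 and 224 against 70.8, 85.6 and 74.2, a 3.0-fold fall, and in control at 212, 176 and 187 against 309, 274 and 287 (interaction -2.07 ± 0.25 SE, adjusted p = 0.00425). In CG6839 the rise from 19.7, 16.7 and 21.6 to 98.6, 52.6 and 46.4 faced a fall in control from 19.2, 20.2 and 39.7 to 5.29, 3.91 and 1.05 (interaction 4.37 ± 0.59 SE, adjusted p = 0.00524). Its diet call alone ended without any 1 of the 6 libraries (adjusted p up to 0.124). Cyp6d5 fell in the libraries labelled svp RNAi and was level in control, at 774, 734 and 907 against 735, 917 and 850 (interaction -1.83 ± 0.25 SE, adjusted p = 0.00524). For these 4 genes and Gclc the interaction was called in all 12 fits that left out 1 library.

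Genes outside the diet calls also differed, and a pair of them is named after their values were seen. CG15553 was at 218, 137 and 172.5 against 253, 155 and 191 under the svp RNAi label, while in control it went from 43.6, 23.7 and 32.8 to 209.5, 253 and 311 (interaction -2.74 ± 0.34 SE, adjusted p = 0.00425, called in all 12 fits). blanks was at 7.91, 5.01 and 3.14 against 4.76, 1.28 and 3.42, and in control went from 2.64, 3.32 and 1.68 to 26.7, 30.3 and 27.7 (interaction -3.69 ± 0.58 SE, adjusted p = 0.0165). The interaction of blanks rests on few reads and was called in 7 of the 12 fits (adjusted p up to 0.0573).

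PI4KIIIalpha, a phosphatidylinositol 4-kinase, rose from 577, 486 and 543 to 1132, 1273 and 1380 (2.21-fold, adjusted p = 0.00018), with a log2 fold change of 0.00 in control. CG3074 (now Swim, a secreted protein that binds Wingless) rose from 114.5, 106 and 93.1 to 226, 295 and 260 (2.32-fold, adjusted p = 0.00199), with -0.48 in control. Both interactions were called in 8 of the 12 fits, and ended without replicate 2 of either control-diet group or without replicate 3 of either high-sugar group (adjusted p up to 0.0763).

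**Figure D4:**
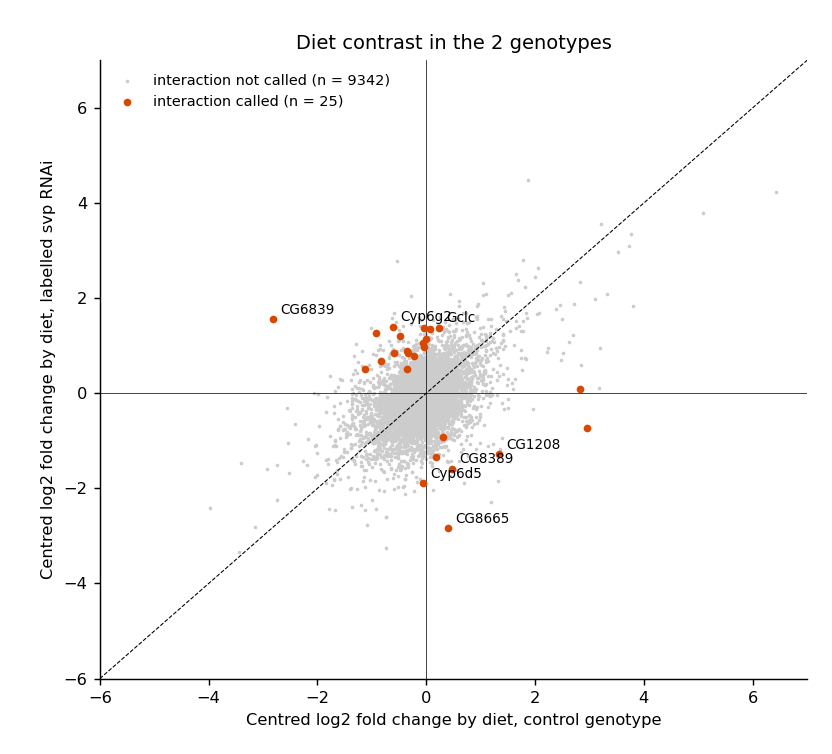
Centred log2 fold change of high sugar over control diet in the libraries labelled svp RNAi (vertical) against that in the control genotype (horizontal), 1 point per gene, with the line of equal change dashed. The 25 genes with a called interaction are orange, among them CG8665 (-2.84 against 0.40) and CG6839 (1.55 against -2.82).

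The called genes were also placed by chromosome arm, a comparison made after their values were seen. Shares of genes called lower were 3.24% to 3.94% on the arms 2L, 2R, 3L, 3R and X. On the small chromosome 4, which is largely heterochromatic, 16 of 74 genes (21.6%) were called lower and 0 higher, 66 of 74 lay below 0, and the median log2 fold change was -0.44. Among control-genotype libraries the median of the same 74 genes was -0.04, with 43 below 0 and 0 called, and 0 of them had a called interaction. By library, the median deviation of these genes from the mean of the 6 libraries was 0.13, 0.26 and 0.17 on control diet and -0.05, -0.23 and -0.34 on high sugar. The control genotype gave 0.19, 0.01 and -0.08 on control diet and -0.26, 0.02 and 0.17 on high sugar, so the libraries there spread widely within a group.

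The 16 genes lowered on chromosome 4 included CG1732 (now Gat), pho, a DNA-binding protein of the Polycomb group, onecut, a transcription factor, Eph, the ephrin receptor, plexA, a semaphorin receptor, CaMKI, a calcium-dependent kinase, and Dyrk3, a kinase, most of them named after their values were seen. Under the other settings the median of the chromosome stayed between -0.35 and -0.51, and the number called lower ran from 2 to 19, with 2 left without high-sugar replicate 3, 5 without high-sugar replicate 2, 6 without control-diet replicate 3, 8 without control-diet replicate 2 and 7 without the intensity trend. The same high-sugar replicate 3 had the lowest mitochondrial share, and the part of that in this pattern was not tested.

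**Figure D5:**
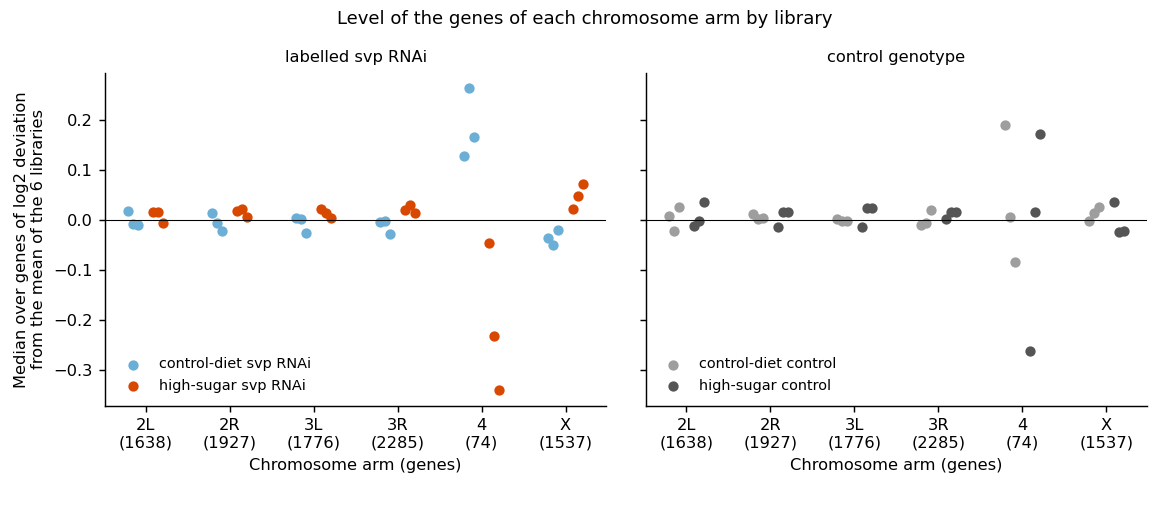
Median over the genes of each chromosome arm of the log2 deviation from the mean of the 6 libraries of a genotype, 1 point per library, for libraries labelled svp RNAi (left) and the control genotype (right). On chromosome 4 (74 genes) the 3 high-sugar libraries labelled svp RNAi lie at -0.05, -0.23 and -0.34 and the control-diet ones between 0.13 and 0.26.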

How the data were processed

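RNA was measured by RNA-seq in 12 libraries of larval fat body, depleted of ribosomal RNA with RiboZero and read on an Illumina HiSeq per the labels' protocols. The authors' tools, per the submitters' processing notes, were edgeR, Cufflinks 1.1.0, Bowtie 0.12.7 and TopHat 1.3.2, and the build was dm3. Annotation, counter and strand setting are not stated there, so overlapping, antisense and near-identical genes could share reads. Each gene's deposited signal is in read-like units, adjusted by the authors to a common library size within each diet and not divided by length.

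The table held 9527 rows, of which 156 with repeated or case-only names and 4 with bare numbers as names were left out. All 9367 genes kept had reads in every library, so genes silent in a library could not be tested. Symbols are printed as deposited, and current names come from a BDGP6 annotation, which served only for names and chromosome arms: 7024 matched a current symbol, 2226 a synonym, 81 were ambiguous and 36 had no match.

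limma 3.58.1 in R 4.3.3 was fitted to log2(value + 1) over all 12 libraries and 4 group means, with an intensity trend and Benjamini-Hochberg adjustment over 9367 genes. The high-sugar values of each genotype were first shifted by their median log2 difference from control diet, 0.092 in the libraries labelled svp RNAi and 0.113 in control. Printed levels are as deposited and carry no shift. Reads were recovered by inverting the authors' adjustment: in genes with means of 12 to 20, at least 99.87% of the values of each library came within 0.1 of a whole read. The fits were tested on simulated data.

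Members and lists were chosen with earlier results of these data known, and 3 lists (P450, one-carbon and lipoprotein genes) were corrected after their calls had been seen, by taking out genes whose annotation was of another kind. One of these, CG8129, had been called higher (log2 fold change 0.84, adjusted p = 0.02), so the one-carbon list has 1 call fewer. The genes named are the 15 largest rises and 15 largest falls among calls whose libraries did not overlap and whose higher group had a mean of at least 20, up to 4 called members per list (6 where more than 10 were called), the checks of the labels, and the 8 diet calls with the smallest interaction p. The alternatives tried were other pseudocounts, a filter on low values, no centring, other scalings, limma voom on recovered reads, no trend, only 6 libraries, a replicate block and leaving out each library. An edgeR test on recovered reads was planned and not run, because the recovery is not a linear rescaling of the deposited values.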

Additional observations from a re-analysis of the deposited data

Results flagged for a closer look

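Among the genes named in the text, 14 had a diet response that differed between the libraries labelled svp RNAi and the control genotype by a test of the difference itself. Written as svp RNAi response less control response, on the log2 scale, the difference was -3.69 for blanks, -3.24 for CG8665, -2.74 for CG15553, -2.62 for CG1208, -2.07 for CG8389 and -1.83 for Cyp6d5. It was 4.37 for CG6839, 2.20 for Cyp304a1, 2.01 for Cyp6g2, 1.70 for CG3074 (now Swim), 1.24 for ry, 1.14 for Gclc, 1.14 for PI4KIIIalpha and 1.12 for Cyp6t3. The differences of CG8665, CG15553, CG8389, Cyp6d5, CG6839 and Gclc were called in all 12 fits that each left out 1 library and in the 9 other settings run, with adjusted p up to 0.0499 for Gclc. Those of the other 8 were lost in some of these fits: Cyp6t3 was called in 2 of the 12, ry and Cyp304a1 in 4 each, Cyp6g2 in 5, CG1208 in 6, blanks in 7, and PI4KIIIalpha and CG3074 in 8 each, with adjusted p up to 0.119.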

How the results depend on the processing

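The main counts were 502 genes higher, 341 lower and 25 with a called interaction. With no centring they were 1004, 279 and 18, and without an intensity trend 346, 213 and 11. The replicate block gave 472, 314 and 24. Correlations of deviations from group means ran from -0.24 to 0.19 between same-numbered libraries of different groups and from -0.21 to 0.25 between the others. Weak correlations cannot show whether the numbers pair the samples, and the labels do not say. The other settings (pseudocounts of 0.5 and 10, a mean of at least 20, quantile normalization, joint scaling of recovered reads, voom and only the 6 libraries) gave 391 to 577 higher, 268 to 355 lower and, where it could be fitted, 21 to 32 interaction calls. Leaving out each library in turn gave 191 to 544 higher, 101 to 383 lower and 6 to 31 interaction calls, with 6 and 7 interaction calls without high-sugar svp RNAi replicate 3 and without high-sugar control replicate 3. No named call changed direction in any of these fits. Of 142 named genes, 33 lost their call without the trend and 26 with only the 6 libraries. Of the 138 named calls, 73 held in all 12 fits that left out a library. Medians of lists near 0 changed sign with the scaling, among them oxidative phosphorylation (-0.03, and 0.06 with no centring) and P450 genes (-0.04 and 0.05). The edgeR alternative was not run.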

Other observations

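Some gene groups with few or 0 calls still had members that lay to 1 side. All 10 bomanins and other immune-induced short peptides were above 0 (median log2 fold change 0.48, 0.44 in the control genotype), with 0 calls by limma (1 higher at an unadjusted p under 0.05, 0 by voom). All 6 Turandot and JAK/STAT genes were above 0 (median 0.50, 0.29 in control), also with 0 calls (2 higher at an unadjusted p under 0.05, 2 by voom), and took 1.40% to 1.63% of reads on control diet and 1.89% to 3.35% on high sugar, without overlap. Cytosolic ribosomal protein genes were above 0 in 70 of 84 cases (median 0.20, and 0.06 under quantile normalization), and 4 were called higher, among them RpS14b (1.54-fold), RpL5 (1.52-fold) and RpL24-like (1.42-fold). In all 4.76% of the list was called, below the 9.0% of all genes. The calls of RpL5 and RpL24-like ended without control-diet replicate 2 or any 1 high-sugar library, among others (adjusted p up to 0.116). RpS14b has a near-identical copy, RpS14a, with which it could share reads. With no centring, 18 of the 84 were called higher, while the higher calls over all 9367 genes went from 502 to 1004.

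Proteasome subunits were below 0 in 27 of 32 genes (median -0.13) with 0 calls (4 lower at an unadjusted p under 0.05, 0 by voom), while the median of the same genes in the control genotype was 0.35, with 1 called higher. In this list 0 genes had a called interaction, so a difference between the genotypes was not shown. Genes of mitochondrial ribosomal proteins fell in 3 of 72 cases (4.17%, beside 3.64% of all genes) and rose in 0, a share near that of all genes. They were mRpL36 2.02-fold, mRpL20 2.15-fold and mRpL30 1.82-fold, the latter pair lost without replicate 2 or 3 of either diet (adjusted p up to 0.126). Translation factors and tRNA synthetases rose in 4 of 63 cases and fell in 1, in all 7.94% beside 9.0% of all genes, and 1 of the rises was called in all 12 fits that left out 1 library. It was eIF-3p40 (now eIF3h), at 1424, 1237 and 1287 against 2220, 1998 and 2402 (1.57-fold, limma adjusted p = 0.00577).

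The nuclear receptors Hr96, a sensor of lipids, and Hnf4, a regulator of lipid use, rose 1.42-fold and 1.39-fold, the 2 calls among 17 nuclear receptor genes. That is 11.8% of the list, near the 9.0% called of all genes. Hr96 lost its call in 11 and Hnf4 in 9 of the 12 fits that left out 1 library (limma adjusted p up to 0.204). ap, the apterous gene listed with the imaginal disc markers, was at 357, 308 and 251 against 613, 588 and 623 (1.89-fold, limma adjusted p = 0.00508), while the other 13 disc markers had 0 calls and the median of the list was -0.31.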
